A study of Arabidopsis thaliana with 8 samples.

Results

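The effect of *CYCLOIDEA* (*CYC*) from *Antirrhinum majus* on the transcriptome of *Arabidopsis thaliana* was followed by comparing inflorescences of plants that expressed the gene ectopically under the viral 35S promoter (35S::CYC) with inflorescences of plants carrying the empty transformation vector. The comparison used 4 of the 8 ATH1 arrays of the study, 2 for each of these groups. The other 4 arrays, 2 each of plants expressing *IaTCP1* from *Iberis amara* (35S::IaTCP1) or the *Arabidopsis* gene *TCP1* (35S::TCP1), were used where a difference between transgenes is given. All plants were of the Columbia accession and the second transgenic generation, and the tissue was secondary inflorescences with flowers that had not yet opened. The 35S promoter drives expression in most tissues, so the transgene was not limited to petals. Plants with a clear flower phenotype were taken, which for 35S::CYC was enlarged petals and for the other transgenes reduced petals. Each group is 1 transgenic line. Both arrays of a group were made from that line, as separate RNA samples, so a p-value measures how far such samples vary and says nothing of variation among lines. The array holds probes for *Arabidopsis* genes, so the level of the *CYC* transgene itself was not measured and gives no check of the labels.

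CYC is a founding member of the TCP transcription factors, plant-specific proteins that bind DNA through a basic helix-loop-helix type domain and control cell proliferation and growth. In *Antirrhinum*, *CYC* is active in the dorsal part of the flower and makes it monosymmetric, whereas the *Arabidopsis* flower is close to disymmetric. TCP proteins fall into classes, and members of the CYC clade are known to act on petal growth in many plants, promoting it in some and restraining it in others.

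The values are log2 intensities that the authors normalised together by RMA, a method that corrects the background, equalises the distributions and summarises the probes of each probe set. Array medians lay between 6.48 and 6.56, and the 2 arrays of a group correlated with r of 0.99668 to 0.99806. Of 22746 probe sets, 347 rose in 35S::CYC (1.53%) and 353 fell (1.55%). Together these made up 3.08%. Rising or falling here means a change of 2-fold or more whose p in limma was at most 0.05 after Benjamini-Hochberg adjustment. The limma method fits a linear model to each probe set and moderates its estimate of the spread with that of all probe sets. The standard error of the log2 change, for 2 arrays in each group, had a median of 0.101 over the 700 changed probe sets (range 0.0814 to 0.461), and the highest adjusted p among them was 0.0307. The arrays of the groups did not overlap for any of the 700, nor for 60.9% of all probe sets. Rises reached further than falls, since 56 probe sets rose at least 4-fold against 29 that fell as much, and 9 rose at least 8-fold against 1 that fell as much. The probe sets that rose had a median log2 intensity of 6.04 in the empty-vector arrays, against 7.75 for those that fell and 6.54 for all probe sets. The control level enters the log2 change, so these medians are not independent of how the probe sets were chosen. The median log2 change of all probe sets was 0.022. No detection calls were used, so for genes below a log2 intensity of about 5 in the control, such as several named below, the control level may be background and the size of a rise is uncertain.

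**Figure D1:**
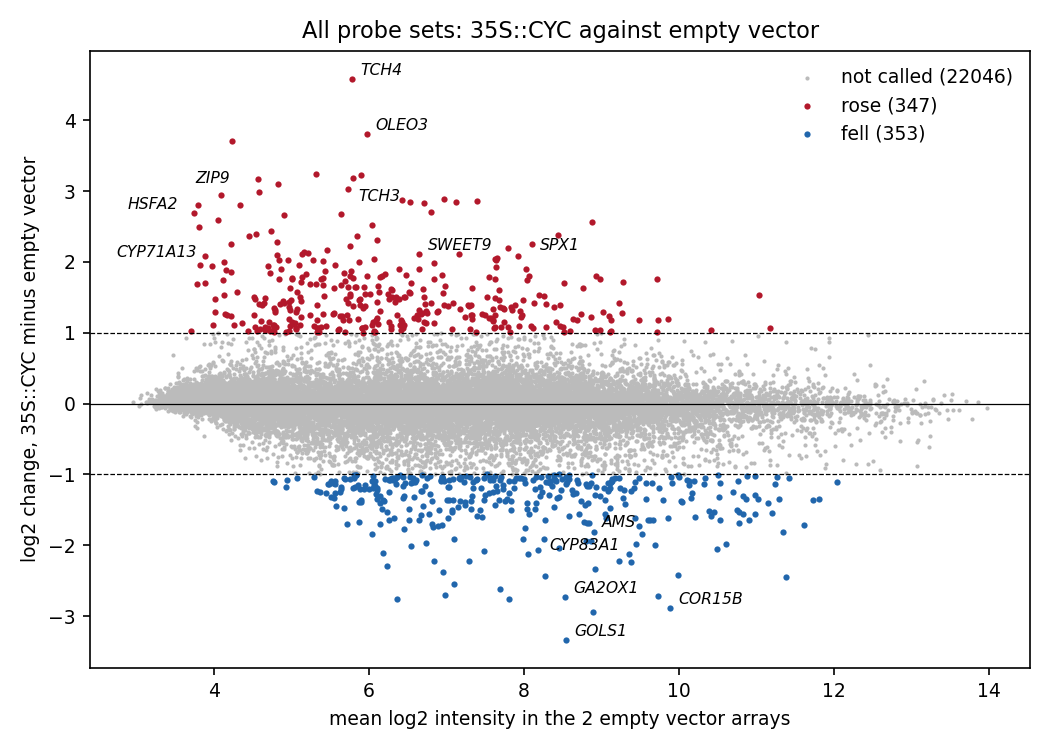
Log2 change in 35S::CYC (vertical axis) against the mean log2 intensity of the 2 empty-vector arrays (horizontal axis), with 1 point for each of 22746 probe sets. The 347 probe sets that rose (red) reach a log2 change of 4.58, and the 353 that fell (blue) reach -3.33.

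The functional classes assigned in the study's own list of changed genes cover 564 of the 700 changed probe sets and none that did not change, so they describe only the direction of change. Hormone metabolism had 24 risen and 6 fallen probe sets, signalling 16 and 7, and transport 23 and 15. All 11 probe sets of the ethylene class and all 5 of calcium signalling had risen. Secondary metabolism ran the other way, with 7 risen and 28 fallen, among them all 11 of the phenylpropanoid class. The 5 peroxidases of the list had all fallen, for example AT5G19880 with a log2 change of -2.22 and AT4G11290 with -1.93. Transcriptional regulators were split between 25 that rose and 27 that fell, and biotic stress genes between 11 and 11.

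**Figure D2:**
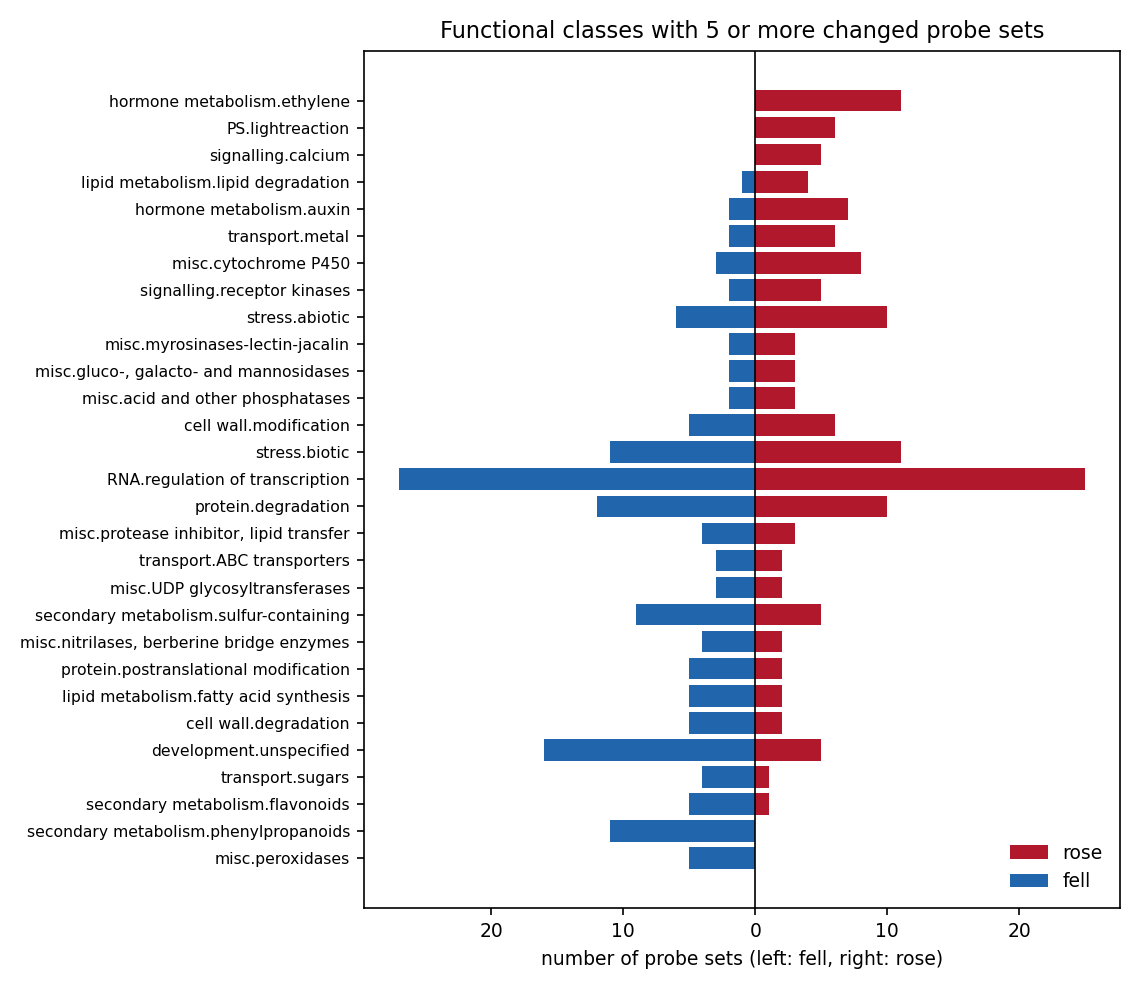
Number of probe sets that rose (red, to the right) or fell (blue, to the left) in 35S::CYC for the functional classes with 5 or more changed probe sets. The ethylene, photosynthetic light reaction and calcium signalling classes hold only risen probe sets, and the phenylpropanoid and peroxidase classes hold only fallen ones.

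For the groups described below, gene lists were set up by locus. Members whose probe set is named by the array's annotation are counted apart from members named only through the study's tables, because those tables list genes that changed in one of its comparisons. The latter are therefore not independent evidence of a direction. Among all 13513 probe sets named by the annotation, 170 rose and 191 fell.

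Several transporters of zinc were upregulated, 2 of them strongly. *ZIP9*, a plasma membrane zinc transporter that is induced when zinc is scarce, had log2 intensities of 4.53 and 4.60 in the empty-vector arrays and of 7.82 and 7.64 in the 35S::CYC arrays. The groups were far apart and *ZIP9* rose by 3.17 ± 0.12 (log2 change and standard error, adjusted p = 4.79e-09). *ZIP4*, a second zinc transporter of this response, went from 6.75 and 6.68 to 9.61 and 9.49, a log2 change of 2.84. *IRT3*, which transports zinc and iron, rose by 1.71, *ZIP1* by 1.27 and *ZIP5* by 1.03. The rise of *ZIP5* lay at the 2-fold minimum and fell below it, to 0.94, without the second empty-vector array and to 1.00 without the first 35S::CYC array. *ZIP9*, *ZIP4* and *ZIP1* were also higher in 35S::CYC than in each of the other transgenic lines, by 3.03, 2.35 and 1.29 against 35S::IaTCP1. Not all genes of the list moved. *bZIP19*, the transcription factor that activates *ZIP* genes under zinc deficiency, had a log2 change of -0.33 (adjusted p = 0.0214) and *ZIP6* one of -0.02 (adjusted p = 0.931). In all, 1 of 4 list members named by the annotation and 4 of 5 named by the study's tables rose, and none fell.

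Genes of iron status went in both directions. The iron and manganese transporter *NRAMP1* rose by 1.36 and the ferric chelate reductase *FRO3* by 1.01, the latter a call that was lost without the second empty-vector array (1.00) or the first 35S::CYC array (0.97). *FER3*, a ferritin that stores iron in plastids, was at 10.34 and 10.29 in the control and at 9.16 and 9.21 in 35S::CYC, and its log2 change of -1.13 came with a lower level than in both other transgenic lines. *IRT1*, the iron uptake transporter of the root, fell by 1.10 on the log2 scale. The 2 members named by the annotation, *PYE* and *bHLH101*, both regulators of the iron deficiency response, changed by 0.21 and 0.35 and did not pass the 2-fold minimum.

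Of 23 listed genes of the phosphate starvation response, 7 could be named, all through the study's tables of changed genes, and these 7 rose. The other listed genes were not analysed here. Phosphate-starved plants recover phosphate from membrane phospholipids and replace these by lipids without phosphorus, and several of the 7 act in this exchange. *GDPD1*, which cleaves glycerophosphodiesters, increased from 6.89 and 7.05 to 9.83 and 9.87, and *PLDZ2*, a phospholipase D, from 3.87 and 3.91 to 6.02 and 5.92. *MGD3*, a galactolipid synthase, rose by 2.10 and *SQD2*, a sulfolipid synthase, by 1.70. *SPX1*, which senses phosphate and restrains the response, had 7.95 and 8.25 in the control against 10.30 and 10.41. The groups did not overlap, with a log2 change of 2.26 ± 0.10 standard error (limma, adjusted p = 2.38e-08). The glycerol-3-phosphate permease gene *G3Pp1* rose by 1.80 and the acid phosphatase *PAP17* by 1.63. Against the other transgenes tested directly, 6 of the 7 were higher than in 35S::IaTCP1 and 7 of 7 higher than in 35S::TCP1. These members were listed because they had changed, so their share is not set against that of all probe sets. The exception was *G3Pp1*, whose difference from 35S::IaTCP1 was 0.92.

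In the list of sulfur limitation genes, 2 of 3 members named by the annotation and 2 of 5 named by the study's tables rose, and none fell. *BGLU28*, a beta-glucosidase induced by sulfur deficiency, rose from 5.91 and 5.89 to 9.25 and 9.01, which is 9.40-fold, but it was high in the other lines too, with differences of 0.10 ± 0.11 from 35S::IaTCP1 and 0.56 ± 0.11 from 35S::TCP1 that stayed under the 2-fold minimum. *APS4*, an ATP sulfurylase, and *APK3*, which phosphorylates the product of that enzyme, each rose by 1.39. Both were higher in 35S::CYC than in either other line, *APK3* by 1.70 and 1.56. The opposite order was found for *LSU1*, a gene named for its response to low sulfur. The level of *LSU1* in 35S::CYC was above that of the control by 0.75 on the log2 scale, under the 2-fold minimum, and it was lower than in 35S::IaTCP1 by -1.35 and than in 35S::TCP1 by -2.33 on the log2 scale. The sulfate transporters *SULTR1;2* and *SULTR4;2* had log2 changes of 0.58 and 0.56.

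Most named genes of the sugar starvation list rose. *AMY1*, a secreted alpha-amylase, increased from 5.92 and 6.04 to 7.77 and 7.78, and it exceeded the other lines by 2.44 and 2.33. *TPS8* and *TPPI*, of trehalose metabolism, rose by 1.80 and 1.36, and the dark-induced *DIN10* by 1.39. In contrast, *BCAT2*, a branched-chain aminotransferase that is also on the list, fell by 1.18 on the log2 scale. Both list members named by the annotation rose, as did 4 of 7 named by the study's tables, of which 2 fell. Of the list of nectary and sugar transport genes, 1 of 4 members named by the annotation rose and 2 fell, and 1 of 6 named by the study's tables rose and 4 fell. Sucrose synthase *SUS1* had 9.89 and 9.70 in the control and 8.45 and 8.42 in 35S::CYC, with no overlap. The cell wall invertase gene *CWINV1* fell by 1.16, the sugar transporter genes *STP14* by 1.58 and *SWEET13* by 1.47 on the log2 scale. The sugar transporter gene *ERD6* rose by 2.66. *SWEET9*, the sucrose exporter of nectaries, rose as well. It was at 6.50 and 6.79 in the control and 8.76 and 8.75 in 35S::CYC, 4.30-fold higher, and stood above 35S::IaTCP1 by 3.47 and above 35S::TCP1 by 1.87. *CWINV4*, the other nectary marker that could be named, had a log2 change of -0.13 (adjusted p = 0.361).

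**Figure D3:**
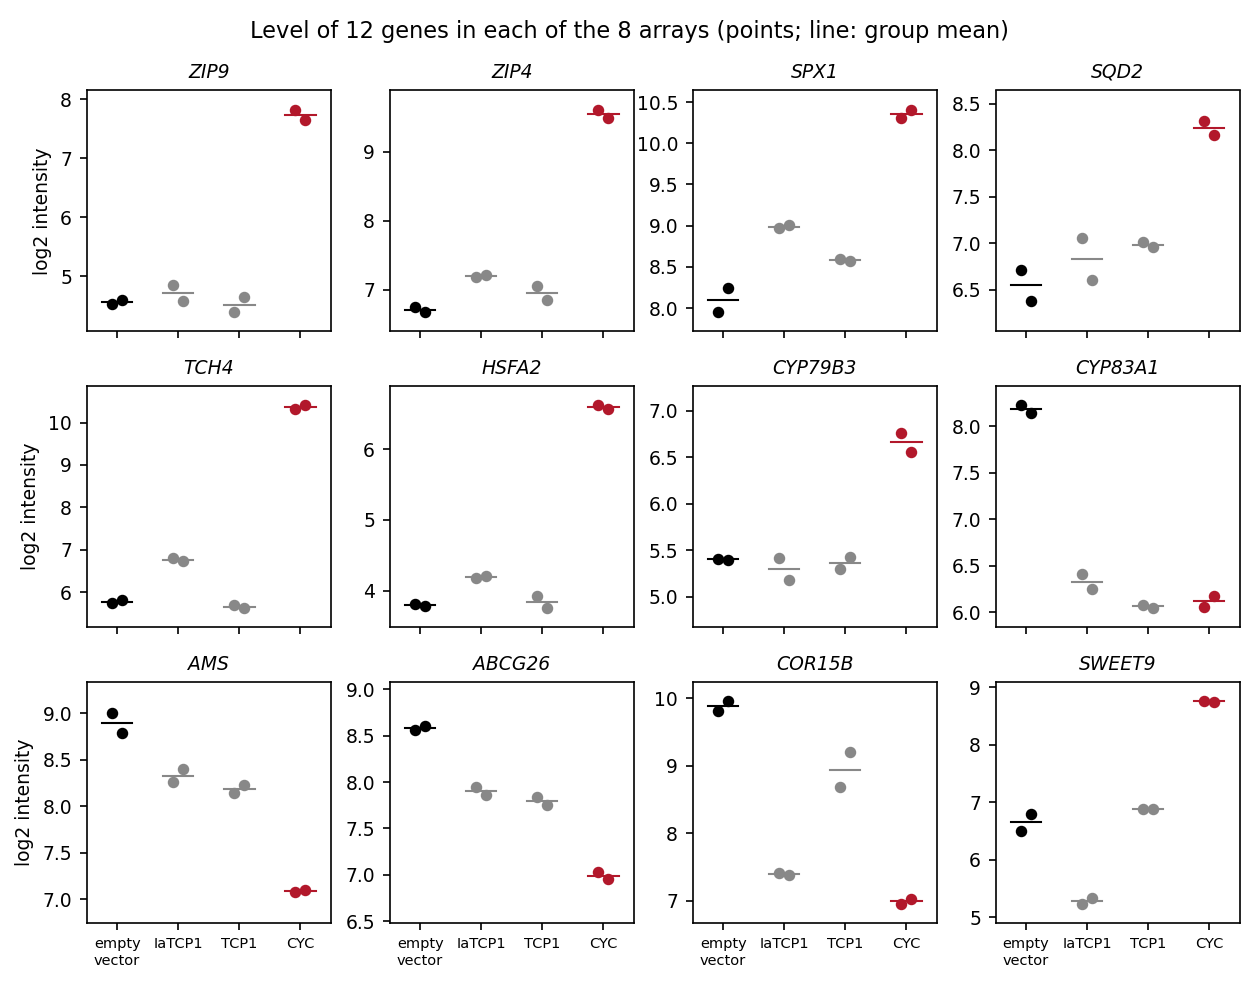
Log2 intensity (vertical axes, a separate scale for each gene) of 12 genes in each of the 8 arrays, with 1 point per array and a line at the mean of each group. *ZIP9*, *ZIP4*, *SPX1*, *SQD2*, *TCH4*, *HSFA2*, *CYP79B3* and *SWEET9* are highest in both 35S::CYC arrays (red), *AMS*, *ABCG26* and *COR15B* are lowest there, and *CYP83A1* is low in all 3 transgenic lines.

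Of 10 touch and calcium genes, 7 rose. Compared directly, 4 of the 10 were higher than in 35S::IaTCP1 and 6 higher than in 35S::TCP1, beside 1.97% and 1.38% of all probe sets. The 10 include members listed because they had changed, so these counts are not independent evidence. In this list 3 of 6 members named by the annotation and 4 of 4 named by the study's tables rose and none fell. *TCH3*, a calmodulin-like protein induced by touch, went from 5.66 and 5.79 to 8.71 and 8.81, a log2 change of 3.03. It exceeded 35S::TCP1 by 2.62, while the difference from 35S::IaTCP1 was -0.20 (adjusted p = 0.24). AT4G27280, an EF-hand calcium-binding protein, rose from 7.32 and 7.46 to 10.30 and 10.20, and was above both other lines by 1.88 and 2.57. The calmodulin-like gene *CML41* rose by 2.27 and *CAX3*, an exchanger that loads calcium into the vacuole, by 1.39, both above each of the other lines. *MPK3*, a MAP kinase of stress signalling, rose by 1.47 and differed by less than 2-fold from either line. Its relatives in the list were not all affected, as *CML37* changed by 0.17 and *CML42* by 0.03.

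Of the ethylene response factor (ERF) and related AP2 genes, 1 of 2 members named by the annotation rose and 1 fell. Of the 10 named by the study's tables of changed genes, 9 rose and 1 fell. *DEWAX* (AT5G61590), which represses cuticular wax formation, was at 7.10 and 7.14 in the control and at 9.93 and 10.01 in 35S::CYC. *ERF104*, *ERF1A* and *ERF6*, factors of defence and stress signalling, rose by 2.02, 2.02 and 1.75. *RAV1* and *TEM1*, repressors of growth and of flowering, rose by 1.76 and 1.68. These 6 genes were all higher in 35S::CYC than in 35S::IaTCP1 and than in 35S::TCP1, whereas *ERF15*, with a log2 change of 2.25, differed from them by only 0.41 and 0.33. *SHN3*, an activator of cutin and wax formation, went the opposite way to *DEWAX* and fell from 8.35 and 8.44 to 6.93 and 6.92. *TOE3*, of the AP2 group, fell by 1.37 on the log2 scale. Only *DEWAX* and *SHN3* of these are named by the annotation.

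Stress-related genes of a list centred on WRKY transcription factors followed, and 4 of the 6 named by the study's tables rose and 1 fell. *WRKY18* rose from 5.75 and 5.75 to 7.27 and 7.28, and *WRKY33*, which activates camalexin synthesis, by 1.47. *WRKY40* rose by 1.04, a call that depended on the first 35S::CYC array, without which the change was 0.98. The 3 members named by the annotation, *WRKY22*, *WRKY53* and the zinc finger gene *STZ*, had log2 changes of 0.19, 0.87 and 0.92 and stayed under the 2-fold minimum.

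The heat shock response was raised in part. *HSFA2*, a heat shock factor that amplifies the response, was at 3.81 and 3.79 in the control and reached 6.62 and 6.57 in 35S::CYC. The groups were apart, with a log2 change of 2.80 ± 0.09 standard error (limma, adjusted p = 2.22e-09). *HSP101*, a disaggregase needed for heat tolerance, rose by 1.76, and both genes were higher than in the other lines. *HSP90.1* rose by 1.07, *ROF2*, a co-chaperone, by 1.26 and AT2G20560, a DNAJ chaperone, by 1.48. Of the 9 members named by the annotation 2 rose and none fell, with a median log2 change of 0.46, and 7 stayed under the 2-fold minimum, among them *HSA32* with 0.49, *Fes1A* with 0.44 and *HSP22.0* with -0.03. All 5 members named by the study's tables rose.

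Among 8 cold-regulated genes 4 fell and none rose. *LTI30*, a dehydrin, went from 5.98 and 6.10 to 4.23 and 4.17, and *RD29A* (*LTI78*) from 9.70 and 9.68 to 7.62 and 7.75. *COR15A* and *COR47*, also induced by cold, had log2 changes of -0.59 and -0.52 and did not reach 2-fold, and the cold regulator *CBF3* (*DREB1A*) had -0.98. The falls were 2 of 4 members named by the annotation and 2 of 4 named by the study's tables. *LTI30* differed from 35S::IaTCP1 by 0.41 and from 35S::TCP1 by -0.27, both under 2-fold. *RD29A* was lower than in 35S::TCP1 by -1.29 and at a difference of 0.09 from 35S::IaTCP1 (adjusted p = 0.59), and only the galactinol synthase gene *GOLS1* was lower than in both, by -1.43 and -1.84.

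Abscisic acid genes, which share promoter elements with the cold response, were mixed, and 4 of 8 rose and 2 fell, all named by the study's tables. *ABF3*, a bZIP factor that activates abscisic acid responses, rose from 6.41 and 6.36 to 7.89 and 7.84. The homeobox gene *HB-7* rose by 1.58 and *AFP1*, which restrains the abscisic acid response, rose 2.83-fold, and these 3 genes stood above both other lines by at least 1.62. *ABF1* fell by 1.24 and the phosphatase gene *HAI2* by 1.38 on the log2 scale.

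The pathways of glucosinolates, the sulfur-rich defence compounds of the Brassicaceae, changed in opposite directions. Among genes of aliphatic glucosinolates, 8 of 9 members named by the study's tables fell, and the 2 named by the annotation, one of which is *BCAT4* of the first step of side chain elongation, had log2 changes of -0.65 and -0.58. *CYP83A1*, which processes the aliphatic aldoximes, was at 8.23 and 8.14 in the control and at 6.06 and 6.18 in 35S::CYC. *IPMI1*, a subunit of the isomerase of side chain elongation, fell by 2.11, the side chain oxygenase gene *FMO GS-OX3* by 1.97 and the elongation enzyme gene *MAM1* by 1.48 on the log2 scale. Only the regulator *MYB28* was lower in 35S::CYC than in both other lines, by -1.20 and -1.27, whereas for *CYP83A1* the differences were -0.21 and 0.05. With dim probe sets left out of the fit, 5 of the 8 falls remained.

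Genes of indole glucosinolates and camalexin rose. *CYP79B3*, which turns tryptophan into the shared aldoxime precursor, went from 5.41 and 5.39 to 6.76 and 6.56. *CYP71A13*, which directs this precursor to the phytoalexin camalexin, rose from 4.04 and 4.22 to 6.12 and 6.16. Both exceeded the other lines, *CYP71A13* by 2.20 and 2.06 and *CYP79B3* by 1.36 and 1.30. The regulator *MYB34* rose by 1.29, *CYP83B1*, which commits the aldoxime to indole glucosinolates, by 1.23, and *CYP79B2* by 1.12, none of them different from the other lines by 2-fold. These 5 members are all named by the study's tables, and *UGT74B1*, a glucosyltransferase of both pathways and the 1 member named by the annotation, changed by 0.09 (adjusted p = 0.568).

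**Figure D4:**
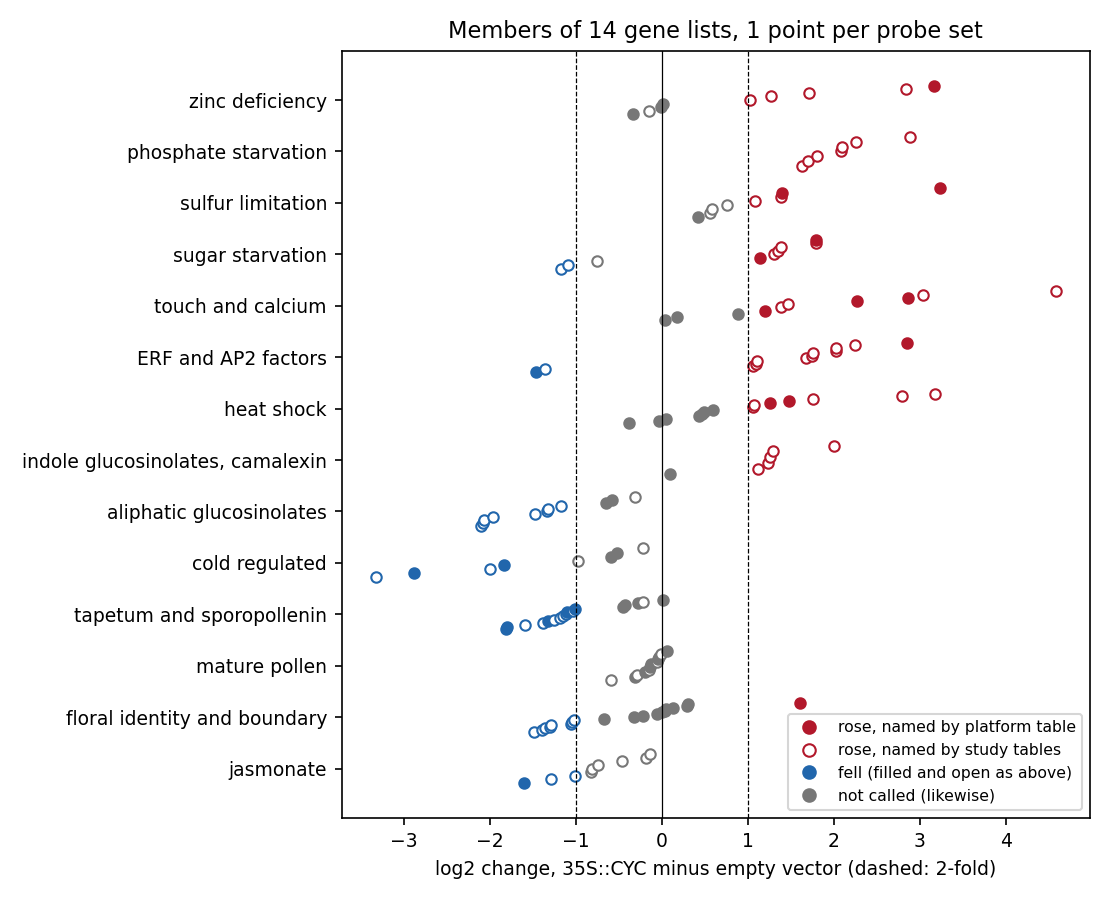
Log2 change in 35S::CYC (horizontal axis) of the members of 14 gene lists, with 1 point per probe set, filled where the array's annotation names the gene and open where only the study's tables do. Phosphate starvation, touch and indole glucosinolate genes lie to the right of zero, aliphatic glucosinolate, cold and tapetum genes lie almost all to the left, and mature pollen genes lie close to zero.

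Hormone genes changed at several levels. In the cytokinin pathway, *LOG5*, which releases active cytokinin, fell from 9.45 and 9.59 to 7.67 and 7.68, a level below that of both other lines. *CKX1*, which degrades cytokinin, rose by 1.65, as it did in the other lines, from which it differed by 0.01 and -0.42. *ARR15*, a response regulator induced by cytokinin, fell by 1.21 on the log2 scale, while *AHP4*, a histidine phosphotransfer protein, rose by 1.94. In the brassinosteroid pathway *DWF4*, the rate-limiting enzyme of synthesis, rose by 1.47, and *BKI1*, an inhibitor of the receptor, rose by 1.32, the latter above both other lines. *BEH1*, a relative of the transcription factor BES1, fell by 1.37 on the log2 scale.

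*RGL3*, a DELLA repressor of gibberellin responses, rose from 4.79 and 4.88 to 6.65 and 6.54, while the gibberellin receptor genes *GID1A*, *GID1B* and *GID1C*, all named by the annotation, had log2 changes of -0.39, 0.77 and -0.12. In the ethylene list, 1 of 2 members named by the annotation and the 1 named by the study's tables rose, and none fell. The risen member named by the annotation, the oxygenase gene AT1G12010, had a log2 change of 1.95. The level of AT1G12010 in 35S::CYC, 6.62 and 6.67, was far lower than in 35S::IaTCP1 or 35S::TCP1, by -2.30 and -3.21 on the log2 scale. Of the jasmonate list, the 1 member named by the annotation and 2 of 8 named by the study's tables fell, and none rose. *JMT*, a jasmonate methyltransferase, fell by 1.61 and *JAZ5*, a repressor of the response, by 1.29 on the log2 scale. Auxin genes named by the annotation changed little, as 6 of 7 stayed under the 2-fold minimum and the list had a median of 0.06. *IAMT1*, which methylates auxin, and *MES17*, which reverses such methylation, fell by 1.92 and 1.38 on the log2 scale. The auxin-associated AT2G33830 rose by 1.86, and the auxin class of the study's list held 7 risen and 2 fallen probe sets.

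Salicylic acid responses were divided, with 5 risen and 4 fallen among 11. Of the 2 members named by the annotation, 1 rose and none fell. The other 9, of which 4 rose and 4 fell, are named only through the study's lists of changed genes. The high share of changed members is therefore not independent evidence. Compared directly, 5 of the 11 were lower than in 35S::IaTCP1 and none was higher. Against 35S::TCP1, 1 was lower and 1 higher. *PR5*, a pathogenesis-related protein, was at 7.96 and 8.07 in the control and at 6.38 and 6.14 in 35S::CYC, and *PCC1* fell from 8.83 and 8.99 to 6.47 and 6.67. The glucanase gene *BGL2*, another pathogenesis-related gene, rose by 1.27 instead, and *ACD6*, a regulator of salicylic acid defence, by 1.62. *BSMT1*, which methylates salicylic and benzoic acid, rose by 1.36.

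Genes of the tapetum, the cell layer that feeds the developing pollen and makes the sporopollenin of its wall, were downregulated, whereas none of the named genes of mature pollen was called. Of the tapetum list, 5 of 9 members named by the annotation and 7 of 8 named by the study's tables fell and none rose, with a median log2 change of -1.01 for the former. *AMS*, a transcription factor of tapetum development, was at 9.004 and 8.788 in the control and at 7.077 and 7.099 in 35S::CYC, a fall to less than the level of either other line. AT5G07230, a protein of the lipid-transfer family known from the tapetum, fell from 11.27 and 11.42 to 9.52 and 9.55. *ABCG26*, the transporter that exports sporopollenin precursors, fell from 8.56 and 8.60 to 7.03 and 6.96. The enzymes that make these precursors fell by similar amounts, *ACOS5* by 1.38, *LAP5* by 1.26, *CYP703A2* by 1.19, *CYP704B1* by 1.15, *LAP6* by 1.12 and *TKPR2* by 1.03 on the log2 scale. *SHT*, which makes the phenolic amides of the pollen coat, fell by 1.33 and *UND*, a protease gene of the tapetum, by 1.11 on the log2 scale. Genes that act earlier in the anther did not follow, since the receptor gene *EMS1* changed by 0.02 and the anther regulator *SPL* by -0.27.

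The summed linear intensity of the 5 tapetum markers that could be named of 10 was 6146 and 6342 in the control and 2211 and 2200 in 35S::CYC. It was 4502 and 4533 in 35S::IaTCP1 and 4339 and 4256 in 35S::TCP1, so both lay between. Of these markers, *AMS* and AT5G07230 are named by the annotation. *LAP5*, *ACOS5* and *LAP6* could be named only because the study's tables list them as changed, so the fall of the sum is not independent evidence. In whole inflorescences, fewer tapetum cells and less RNA per tapetum cell cannot be told apart. For mature pollen, none of 7 members named by the annotation and none of 5 named by the study's tables rose or fell, with a median log2 change of -0.13 for the former. The 5 pollen markers named of 8 summed to 3638 and 3716 in the control and to 3290 and 3279 in 35S::CYC, against 785 to 810 in 35S::IaTCP1 and 1604 to 1611 in 35S::TCP1. Accordingly, 7 of the 12 pollen genes were higher in 35S::CYC than in 35S::IaTCP1 and 4 higher than in 35S::TCP1. Of all probe sets, 1.97% and 1.38% were higher in these comparisons. The 5 named by the study's tables were listed there for a change in another line, so their differences are not independent evidence. AT3G07820, a pectin lyase-like gene of pollen named by the annotation, was higher by 2.37 and 1.14. What part a shift between cell types had in the other results was not tested. Meristem markers that could be named (*KNAT1* and *CLV3*) summed to 309 and 287 in the control and 516 and 542 in 35S::CYC, with neither passing the 2-fold minimum, and to 545 and 521 in 35S::IaTCP1 and 651 and 618 in 35S::TCP1. The 1 floral organ marker named of 6, *AP1*, fell by 1.40 on the log2 scale, with linear intensities of 2228 and 2291 in the control and 828 and 888 in 35S::CYC. Both *AP1* and *KNAT1* are named only by the study's tables of changed genes, so their changes are not independent evidence either. None of the 3 green tissue markers named of 19 rose or fell.

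Several genes of floral organ boundaries fell, all of them named through the study's tables. *LSH1*, of a family active at organ boundaries, went from 6.06 and 6.28 to 4.75 and 4.61. *MYB105* and *MYB117*, which encode the boundary regulators LOF2 and LOF1, fell by 1.30 and 1.03, and *FIL* (*AFO*), which specifies the outer side of lateral organs, by 1.06 on the log2 scale. The homeobox gene *ATH1*, active at the base of organs, fell by 1.36 on the log2 scale. *FAF1* and *FAF2*, which adjust meristem size, fell by 1.13 and 1.10 and were lower than in 35S::IaTCP1. All 8 of the list members named by the study's tables fell, but among the 11 named by the annotation 1 rose, none fell and the median was 0.03. The one that rose was *NGA2*, a B3 factor that shapes lateral organs, from 6.29 and 6.29 to 7.92 and 7.88, and its difference from 35S::IaTCP1 was -0.03. The petal genes *RBE* and *PTL* had log2 changes of 0.05 and -0.0011.

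Among regulators of organ size, 1 of 4 list members named by the annotation rose, and 3 of 4 named by the study's tables rose and 1 fell. *EXO*, a cell expansion gene induced by brassinosteroid, was already high in the control at 9.68 and 9.76 and rose to 11.51 and 11.44 in 35S::CYC, above both other lines by 1.25 and 1.94. *GRF7*, a growth-regulating factor, fell by 1.49 on the log2 scale. *BPE*, which limits petal size, changed by -0.20 (adjusted p = 0.144) and *ARL*, which promotes organ growth, by 0.12 (adjusted p = 0.556). Within the TCP family itself, *TCP9* rose from 6.62 and 6.33 to 8.34 and 8.24, an increase of 1.81 beside 1.48 in 35S::IaTCP1 and 1.28 in 35S::TCP1 against the same control arrays. *TCP15* and *TCP4*, the latter a repressor of organ growth, had log2 changes of -0.57 and -0.89 and did not reach 2-fold. Of 5 cell division genes named by the annotation 1 rose, and *AUR1*, *MCM7* and *AUR2*, which act in mitosis and DNA replication, changed by 0.03, -0.04 and -0.16.

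Enzymes that remodel the cell wall were divided. Apart from *TCH4*, the xyloglucan endotransglucosylases/hydrolases *XTH19*, *XTH15* and *XTH30* rose by 1.48, 1.39 and 1.09, of which *XTH19* went from 6.16 and 6.37 to 7.67 and 7.82 and was above both other lines. *XTH7* fell by 1.12 on the log2 scale. Of the 9 members of this family named by the annotation 1 rose and none fell, with a median log2 change of 0.08, and 3 rose and 1 fell of the 4 named by the study's tables. In contrast, most expansins that changed had fallen. *EXPB3* went from 10.46 and 10.44 to 8.95 and 8.89, lower than in both other lines, *EXLB1* fell by 1.16, *EXPA1* by 1.14 and *EXPA11* by 1.05 on the log2 scale. *EXLA2* rose by 1.17. Of 18 expansin probe sets named by the annotation 1 rose and 2 fell, with a median log2 change of -0.02, so most were not changed 2-fold. Of the KCS family of fatty acid elongases, *KCS15*, *KCS7* and *KCS21* fell by 1.72, 1.42 and 1.10 on the log2 scale, with *KCS15* at 9.46 and 9.50 in the control and 7.68 and 7.83 in 35S::CYC. All 3 are named by the study's tables only.

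The transcription factors with the largest changes beyond these lists included *MYB13*, which rose from 6.16 and 6.25 to 7.95 and 8.12 and stood above both other lines. *MYB10*, an iron-responsive MYB factor, rose by 1.85, and *RVE1*, a MYB factor that links the circadian clock to auxin, by 1.68, neither different by 2-fold from the other lines. Among those that fell, the clock regulator *PRR5* went from 6.23 and 6.05 to 4.43 and 4.45 and *IAA33*, an Aux/IAA-type protein, from 5.71 and 6.04 to 4.29 and 4.13. *PRR5* differed from 35S::IaTCP1 by only -0.09.

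Transcripts encoded by the plastid genome were higher in 35S::CYC. Plastid genes encode core subunits of the photosystems, the cytochrome complex and the ATP synthase besides parts of the plastid's own gene expression machinery. Of 69 plastid probe sets named by the annotation, 21 rose and none fell, 58 were higher in the mean, and the median log2 change was 0.43. *psaC*, a subunit of photosystem I, had the largest change, from 4.29 and 4.60 to 6.58 and 7.05. The photosystem II genes *psbB* and *psbA* rose by 1.51 and 1.06, the cytochrome complex gene *petN* by 1.79 and the NDH complex gene *ndhG* by 1.83. In contrast *rbcL*, the large subunit of Rubisco, had a log2 change of 0.43 and *atpB* of the ATP synthase one of -0.09.

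The size of this rise moved with single arrays, and the other lines showed it too. The mean over the 69 probe sets was 8.54 and 9.03 in the control arrays and 9.22 and 9.57 in the 35S::CYC arrays, so the lower 35S::CYC array exceeded the higher control array by less than the control arrays differed from each other. Without the first empty-vector array 10 of the 69 rose, and without the second 35S::CYC array 10, while leaving out either of the other arrays gave 27 or 29. In 35S::IaTCP1 and 35S::TCP1 the means were 9.29 and 9.30, and 9.38 and 9.81, and against the same control arrays 14 and 26 probe sets rose. Compared directly, no plastid probe set was higher in 35S::CYC than in either line and 1 was lower than in 35S::TCP1. Nuclear genes of the photosynthetic apparatus did not rise: none of 7 named by the annotation was called, and their median log2 change was -0.11.

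**Figure D5:**
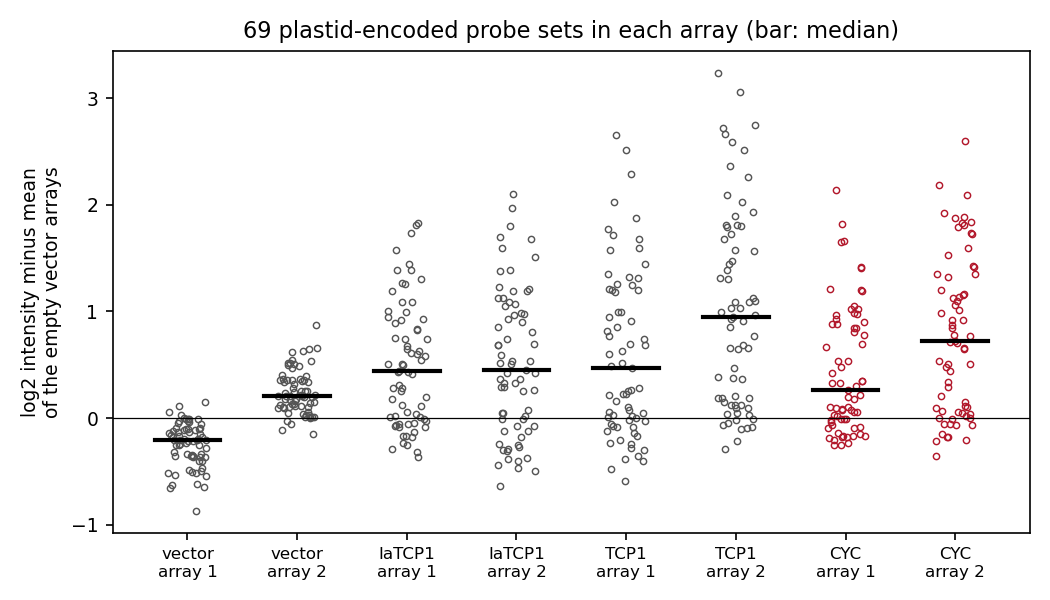
Log2 intensity of 69 plastid-encoded probe sets minus their mean in the empty-vector arrays (vertical axis) in each of the 8 arrays, with 1 point per probe set and a bar at the median. The medians of all 6 arrays of transgenic lines lie above zero, the 35S::CYC arrays (red) among them, and the 2 control arrays differ from each other.

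Over all genes, the changes of 35S::CYC were only in part distinct from those of the other transgenes. Since all 3 lines were compared with the same control arrays, the test of a difference is the direct comparison, which does not use these arrays. Directly, 449 probe sets were higher (1.97%) and 169 lower (0.743%) in 35S::CYC than in 35S::IaTCP1, 2.72% together. Against 35S::TCP1, 314 were higher (1.38%) and 138 lower (0.607%), 1.99% together. Of the 347 that rose against the control, 121 (34.9%) were also higher than in both other lines, and of the 353 that fell, 45 (12.7%) were also lower than in both. The 35S::CYC arrays enter both comparisons, so these shares are not independent of the choice of the 347 and 353. Genes that rose in 35S::CYC beyond both others included *ZIP9*, *SPX1*, *HSFA2*, *ERF104* and *CYP71A13*, and genes that fell beyond both others *AMS*, *LOG5*, *FER3* and *EXPB3*. The glycine-rich protein gene AT2G05540 rose 9.41-fold but remained lower than in 35S::IaTCP1. AT1G47400, annotated as an unknown protein, rose from 4.19 and 4.28 to 7.92 and 7.96, the third largest change among probe sets with 1 named gene, and was higher than in both other lines.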

How the data were processed

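RNA of inflorescences was hybridised to 8 Affymetrix ATH1 arrays, 2 for each of 4 groups, by the labels. The authors deposited 1 log2 intensity per probe set and array after RMA, with Partek also named in the submitters' processing notes (versions not given in the sources used here), and these log2 values were used as deposited. RMA draws the distributions of arrays together, so a shift shared by most genes would not be seen, and it compresses low intensities. Columns of fold changes and p-values in the study's tables were not used. After 64 control probe sets were left out, limma 3.58.1 under R 4.3.3 was applied to 22746, with a mean for each of the 4 groups. The fit had 4 residual degrees of freedom, to which eBayes added 7.9, and was tested on simulated data. Changed means 2-fold or more and an adjusted p (Benjamini-Hochberg, over all probe sets of a comparison) of no more than 0.05. With 2 arrays a group, their number sets the limit of precision.

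The platform's table names 1 gene for 13513 probe sets, the study's tables alone name 428 more, 527 have several genes and 8278 have none here. Functional classes were those assigned in the study's tables. The 31 gene lists hold 678 genes, of which 105 have a probe set named by the platform's table and 158 one named only by the study's tables. Members and lists were chosen with earlier results of these data known, so lists carry counts and medians and no test. The rule for naming genes took the 10 largest rises and 10 largest falls among named probe sets whose arrays do not overlap, in every list up to 6 changed members by adjusted p and up to 2 unchanged ones by level, the genes the study retested by RT-PCR, and up to 10 transcription factors per direction. Further genes named as members of a list, a family or the plastid genome were chosen after their values were seen. Alternatives were median centring, cyclic loess, an intensity trend, leaving out dim probe sets (mean log2 intensity under 5 over the 8 arrays), other thresholds, the fit on 4 arrays, a replicate block and leaving out each array. Promoter motifs were not searched, as no promoter sequences were used here. Plots were made in matplotlib 3.10.9 (Python 3.11.15).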

Additional observations from a re-analysis of the deposited data

How the results depend on the processing

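All 700 probe sets with a change of 2-fold or more also passed the adjusted p, so the fold minimum alone set the calls. Fitting only the 4 arrays of the comparison, an intensity trend, unadjusted p-values and a replicate block leave the log2 change as it was. That all 700 kept their call under these settings is therefore little evidence of stability. The calls kept in the same direction were 698 at an adjusted p of 0.01 and 687 after cyclic loess. They were 680 after median centring and 651 with dim probe sets left out. Without 1 array, between 636 and 662 kept their call, and none turned its direction under any of these. Leaving out 1 array at a time gave 332 to 366 higher and 351 to 367 lower probe sets against the empty vector, 449 to 466 and 163 to 184 against 35S::IaTCP1, and 297 to 353 and 138 to 157 against 35S::TCP1. With a 1.5-fold minimum, 768 were higher and 1077 lower than in the empty vector, so that 58.4% of the changes were falls instead of 50.4%. That minimum gave 994 higher and 551 lower against 35S::IaTCP1, and 894 higher and 556 lower against 35S::TCP1. The replicate number as a block gave the same 347 and 353, and deviations of same-numbered arrays correlated with r of 0.16 to 0.52. All 6 correlations were positive, but no label ties equal numbers to a shared batch or day. Of 155 named genes that changed, 11 (*AGO7*, *FAF3*, *FRO3*, *HAM4*, *IAA14*, *ST2A*, *SWEET1*, *TUA1*, *WRKY40*, *WRKY54* and *ZIP5*) lost their call under an alternative that still tested them, each with a change near 2-fold, and none reversed. With dim probe sets left out, 11 of the 155 were not tested. The count of plastid probe sets that rose depended most on single arrays.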

Other observations

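Several large families had few changed members among those the platform's table names. Of 42 MADS-box probe sets named by the platform's table, none rose or fell, with log2 changes between -0.97 and 0.22 and a median of 0.04. None of 13 glutathione S-transferases and none of 11 RALF peptide genes was called. Of 47 UDP-glycosyltransferase probe sets, which attach sugars to hormones and secondary metabolites, 2 rose and 1 fell, and of 26 cytochrome P450 probe sets 1 rose. Of 19 further P450 probe sets named only by the study's tables of changed genes, 9 rose and 4 fell. A further 67 changed probe sets, 28 risen and 39 fallen, carry no gene name here, and 27 carry several.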
